A study of Mus musculus with 8 samples.

Results

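The genes described here are 49 interferon-stimulated genes, followed in activated B cells of control mice and of mice with a conditional deletion in Eif4a1, which encodes an RNA helicase of the translation initiation machinery. The members were chosen by gene symbol, as a list of known interferon targets, and each symbol was matched to a row of the deposited count and TPM tables, so that 49 of 53242 genes were followed. Splenic B cells were isolated from C57BL/6 mice aged 8 to 12 weeks and activated for 24 h by co-culture on CD40LB feeder cells, which display CD40 ligand and BAFF, in medium that contained 40 ng/ml IL4. The control mice were Eif4a1+/+ CD23-cre and the 4A1 KO mice were Eif4a1fl/fl CD23-cre, so that mice of both genotypes carried the Cre transgene, which acts from the immature B cell stage in the spleen, and in the knockout it removed exons 2 to 4 of Eif4a1. RNA of 4 mice per genotype was sequenced, with a male and a female of each genotype in batch A and in batch B. The study removed the batch A males (replicate 1 of each genotype) for reduced viability, so the main comparison used 3 libraries per genotype, and values of all 8 libraries are given beside it. The floxed allele was made in embryonic stem cells and backcrossed to C57BL/6. The feeder cells were irradiated with 120 Gy and were removed with beads before RNA isolation.

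Interferons are secreted proteins that bind receptors on the cell surface. Type I and type II receptors activate the kinases JAK1, JAK2 and TYK2, which phosphorylate STAT transcription factors. A complex that holds STAT2 and IRF9 binds the interferon-stimulated response element (ISRE), whereas STAT dimers bind the gamma-activated sequence (GAS). The induced genes encode sensors of foreign nucleic acid, enzymes that block viral RNA or protein, GTPases that attack vacuoles with microbes, and the factors that transcribe the genes themselves. Many of them are also transcribed at a low level in lymphocytes without added interferon. The culture protocol names no added interferon.

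The letters that IRF and STAT proteins are known to bind were looked for in the promoters of the members. RefSeq promoters, 250 bases before to 50 bases after a gene's start, were in the reference table for 35 of the 49 members. The ISRE core, GAAA, any 2 bases, then GAAA again, was searched on both strands, and it was present in 19 of the 35 members (54.3%), against 3.99% of all 27025 genes in the table and 3.69% of the 9463 tested genes with a promoter there. The windows below show what these letters look like in 10 of the 11 members with a core that fell, in Rsad2, the member with a core that rose, and in Stat2, which was not called, and they were chosen after the values were seen. They have 30 bases, are written 5′ to 3′ on the strand that carries the motif, and the capitals mark the core.
Gbp2: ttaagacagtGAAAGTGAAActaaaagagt
Gbp3: ctgggaaataGAAACTGAAActgtgtcctg
Gbp7: atggagaactGAAACTGAAActgcacacac
Igtp: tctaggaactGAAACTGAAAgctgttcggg
Irgm1: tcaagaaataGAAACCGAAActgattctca
Oas1a: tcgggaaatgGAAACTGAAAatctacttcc
Oas3: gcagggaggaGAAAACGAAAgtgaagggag
Eif2ak2: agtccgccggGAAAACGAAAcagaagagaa
Isg15: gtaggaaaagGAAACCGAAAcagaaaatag
Ifi203: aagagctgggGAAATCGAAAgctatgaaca
Stat2: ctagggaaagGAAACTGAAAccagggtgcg
Rsad2: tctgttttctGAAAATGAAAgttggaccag

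These windows were located in GRCm39 by exact match. The Gbp2, Gbp3 and Gbp7 windows are on the minus strand at chr3:142326355-142326384, chr3:142265750-142265779 and chr3:142236034-142236063. The Igtp window is on the plus strand at chr11:58090338-58090367, and that of Irgm1 is on the minus strand at chr11:48762252-48762281. Those of Oas1a and Oas3 are on the minus strand at chr5:121045583-121045612 and chr5:120915780-120915809. The windows of Eif2ak2, Isg15, Ifi203 and Stat2 are on the minus strand at chr17:79189964-79189993, chr4:156285328-156285357, chr1:173770074-173770103 and chr10:128106135-128106164, and that of Rsad2 is on the plus strand at chr12:26506552-26506581. The core of Gbp7 begins 53 bases before the RefSeq start and that of Isg15 begins 72 bases before it. In Eif2ak2 the core lies after the start, from base 18 to base 27.

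The core GAAACTGAAA was the most shared spelling, in 9 members (Bst2, Gbp3, Gbp7, Ifit1, Ifit3, Ifit3b, Igtp, Oas1a and Stat2). Of the 19 members with a core, 8 had more than 1 site within a single promoter, and Trim30a had 1 site in each of its 2 promoters. Among members with a promoter in the table, the core was in 11 of the 15 that fell in 4A1 KO cells, in 4 of the 11 that were tested and not called, and in 1 of the 4 that rose, Rsad2. Over all tested genes with a promoter, the members included, it was in 4.95% of those that fell and in 3.18% of those that rose. The GAS letters TTCNNNGAA were in 9 members (25.7%, against 9.55% of all genes), and the STAT6-type spacing, TTC and GAA with 4 bases between them, which IL4 signalling uses, was also in 9 (25.7%, against 8.01%). A shorter ISRE core, GAAANNGAA, was in 22 members (62.9%, against 9.76%), and each longer core contains it. These are counts of letters in a window and were not tested.

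**Figure D1:**
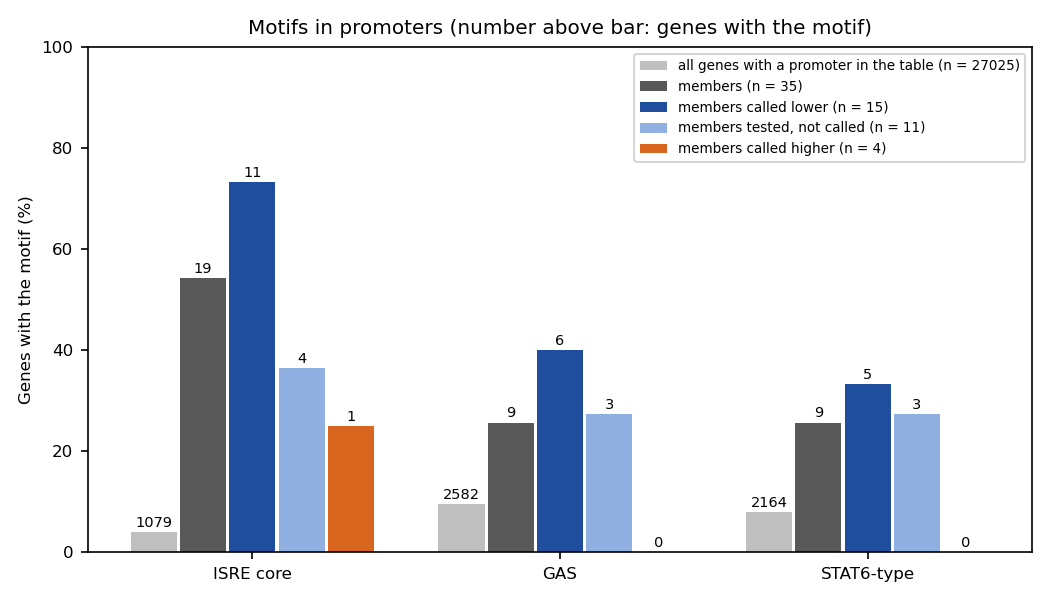
Share of genes, in percent, whose RefSeq promoter holds the ISRE core, GAS or STAT6-type letters, for all genes and for the interferon-stimulated members by their change in 4A1 KO cells; the number above each bar is the count of genes. The ISRE core is in 11 of 15 members that fell and in 3.99% of all genes.

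The 6 libraries of the main comparison held 38488341 to 43210858 counted reads, and the smallest of the 8 held 31727557. Eif4a1 was at 748, 940 and 881 CPM (read counts scaled to a common library size after TMM normalisation) in control replicates 2 to 4 and at 556, 641 and 689 CPM in the 4A1 KO libraries, with 825 and 596 CPM in replicates 1. The genotypes did not overlap, but Eif4a1 was reduced by only 26.5% (log2 fold change −0.44, SE 0.05, adjusted p = 0.000115). The gene-level count includes exons outside the deletion, so it is not a measure of the deleted exons, and 68.6% of its transcript is near-identical to a pseudogene, and their part in the remaining reads was not tested. All 8 B cell markers examined were above 1 CPM, with summed levels of 3748 to 3988 CPM in control and 3118 to 3380 CPM in 4A1 KO libraries, and 4 of the 8 (Cd79a, Cd79b, Cd22 and Blk) fell. Neutrophil markers were at or near 0, with 6 of 7 at 0 in every library, and the 6 NK cell markers summed to 1.11 CPM at most. T cell markers summed to 14.1 to 23.4 CPM in control and 9.99 to 18.7 CPM in 4A1 KO libraries, where Lck was the only marker to reach 1 CPM. The sums were 8.75 to 14.7 and 14.6 to 17.0 CPM for macrophage markers, 25.9 to 32.4 and 30.3 to 46.8 CPM for dendritic cell markers, with Clec9a at 0, and 622 to 929 and 549 to 691 CPM for plasma cell markers, which activated B cells share in part. Of the tested markers, 3 of 5 plasma cell markers fell, 1 of 4 macrophage markers rose, 1 of 4 dendritic cell markers fell and 1 rose. Of 10 fibroblast markers, which the feeder cells could bring, 7 reached 1 CPM in some library and Postn was at 0 throughout, with sums of 29.6 to 52.0 CPM in control and 25.0 to 37.1 CPM in 4A1 KO libraries, and of the 8 tested 1 fell and 1 rose. The part of these cell types in the changes below was not tested. In bulk RNA, fewer cells of a type and less RNA per cell cannot be told apart.

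More of the interferon-stimulated genes fell than rose in 4A1 KO B cells. Of the 49 members, 41 passed the filter on low counts and were tested, 19 of these fell (46.3%) and 4 rose (9.76%), against 13.7% and 11.6% of all 14218 genes tested. Calls needed an absolute log2 fold change above 0.5 and an adjusted p below 0.05 (edgeR quasi-likelihood F-test, adjusted by Benjamini-Hochberg over all genes). The median log2 fold change of the 41 members was −0.47, and that of all tested genes was 0.01, with 31 members below 0 and 10 above. The pairs of same-numbered libraries, which share sex and batch, had medians over these members of −0.63, −0.35 and −0.43 on the log2 scale for replicates 2, 3 and 4, and the pair of replicate 1, which the test did not use, had a median of −0.53. Tested against the fold change itself (glmTreat), 13 members fell and 2 rose (6.94% and 4.5% of all genes), and at an adjusted p alone 22 were lower and 6 higher (26.7% and 26.3% of all genes). Without the pairing, 15 members fell and none rose, against 11.7% and 9.44% of all genes, and Ifit2, Isg15, Rtp4 and Gbp3 were the members that no longer passed as lower.

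**Figure D2:**
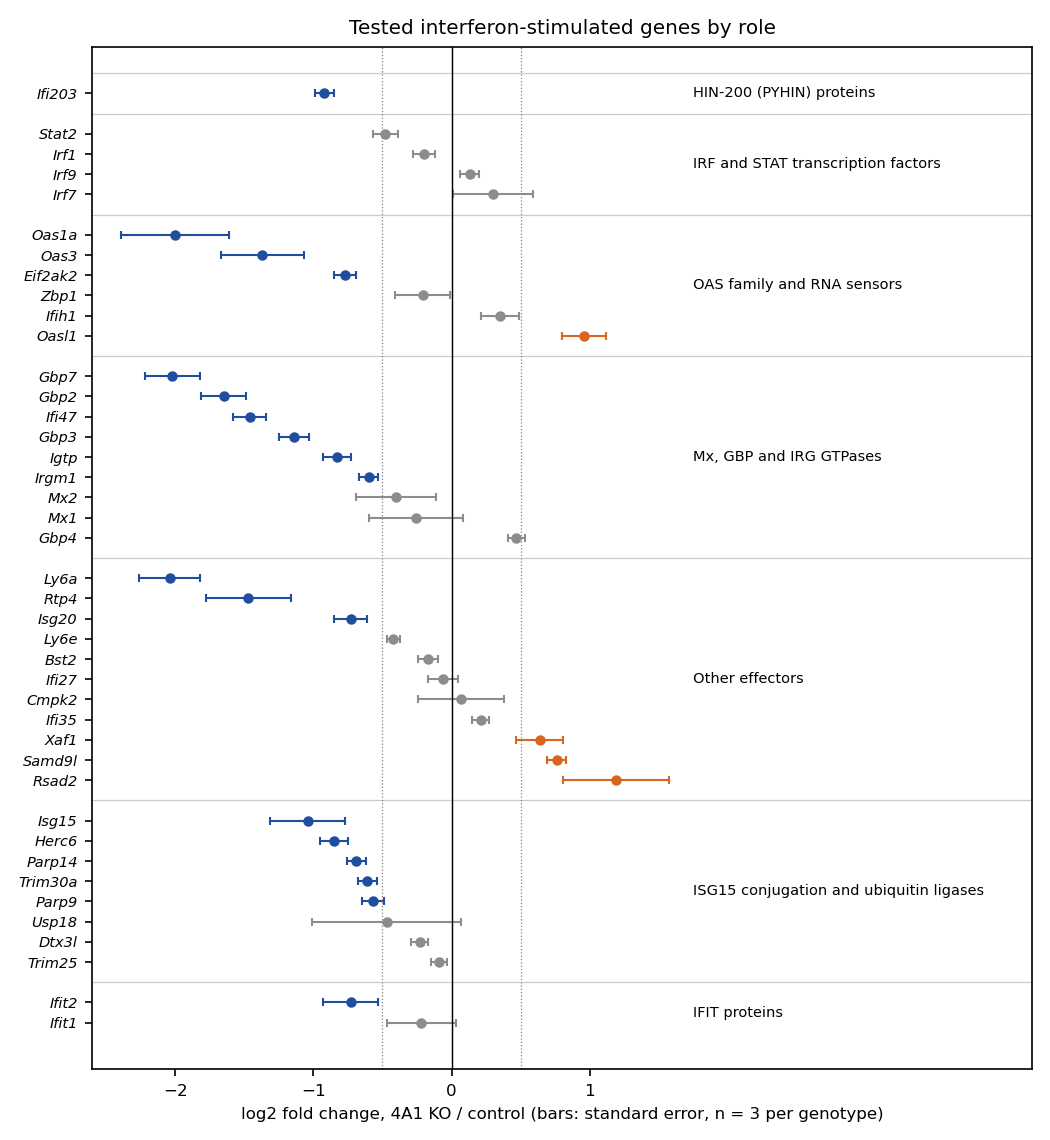
Log2 fold change (4A1 KO over control, horizontal axis) of the 41 tested interferon-stimulated genes, grouped by role, with bars for the standard error (n = 3 libraries per genotype); blue points fell, orange points rose and grey points were not called, and dotted lines mark 0.5 on either side of 0. The GTPases hold 6 of the 19 members that fell, and none of the 4 factors of the IRF and STAT group was called (13.7% of all genes fell and 11.6% rose).

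The GTPases that act on vacuoles and membranes were the class with the lowest median among those with more than 1 tested member, at −0.83. Of 9 tested, 6 fell, none rose and 3 were not called, where 13.7% of all genes fell and 11.6% rose. Gbp2, Gbp3 and Gbp7 are guanylate-binding proteins, whose genes lie close together on chromosome 3 (chr3:142236044-142343779 from the first base of Gbp7 to the last of Gbp2). In control replicates 1 to 4, Gbp2 was at 7.69, 20, 5.15 and 6.89 CPM, and in 4A1 KO replicates 1 to 4 it was at 1.77, 4.96, 1.65 and 2.94 CPM. The genotypes did not overlap, and control replicate 2 stood well above the other controls. Gbp2 fell by 68.1% (log2 fold change −1.65, SE 0.16, adjusted p = 5.43e-05, n = 3 per genotype). Gbp7 was at 2.02, 5.99, 3.13 and 4.43 CPM in control libraries and at 0.538, 1.19, 0.617 and 1.54 CPM in 4A1 KO libraries, again without overlap. This was a 4.06-fold reduction (log2 fold change −2.02, SE 0.20, adjusted p = 6.71e-05), among the largest of the list, although 11.3% of the Gbp7 transcript is near-identical to Gm43802, so reads may be shared. Gbp3 was at 11.4, 24.5, 7.77 and 8.34 CPM in control and at 4.72, 9.63, 4.07 and 3.88 CPM in 4A1 KO libraries. The highest 4A1 KO library, replicate 2, lay above the lowest controls, and the difference was called within pairs (log2 fold change −1.14, SE 0.11, adjusted p = 6.02e-05) but not without them (adjusted p = 0.105).

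Gbp4, another guanylate-binding protein, whose gene is on chromosome 5 (chr5:105263633-105287609), moved the other way. It was at 36.5, 38.6, 28.8 and 31.3 CPM in control and at 45.5, 52.9, 41.8 and 41.9 CPM in 4A1 KO libraries, and it was the only member whose 4A1 KO libraries were all above all controls. Its log2 fold change of 0.47 (SE 0.06, adjusted p = 0.000289) was below the size needed for a call.

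The immunity-related GTPases, which are recruited to vacuoles that hold microbes, fell in every case tested. Ifi47 was at 31.0, 45.2, 36.8 and 33.1 CPM in control and at 11.3, 16.7, 10.4 and 14.99 CPM in 4A1 KO libraries, a fall of 63.7% (log2 fold change −1.46, SE 0.12, adjusted p = 2.68e-05). Every control was well above every 4A1 KO library. Igtp had the tightest controls, at 11.4, 12.4, 11.7 and 12.2 CPM, against 6.17, 7.09, 6.09 and 7.29 CPM in 4A1 KO libraries (log2 fold change −0.83, SE 0.10, adjusted p = 0.000156). Irgm1, a regulator of the other immunity-related GTPases, was at 26.1, 32.6, 28.1 and 28.5 CPM in control and at 21.8, 21.6, 18.5 and 18.7 CPM in 4A1 KO libraries (log2 fold change −0.60, SE 0.07, adjusted p = 0.000147). The difference was smaller in the pair of replicate 1, and in all 8 libraries the log2 fold change was −0.52. The 3 genes lie on chromosome 11 with Eif4a1, at 20.57, 11.46 and 20.79 Mb from it. The antiviral GTPases Mx1 and Mx2 were low, at 0.555 ± 0.428 and 0.782 ± 0.258 CPM in control and at 0.436 ± 0.193 and 0.587 ± 0.117 CPM in 4A1 KO libraries, and neither passed the test (adjusted p = 0.552 and 0.284).

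Among the enzymes and sensors that recognise double-stranded RNA or other nucleic acid, 3 of 6 tested members fell and 1 rose (13.7% and 11.6% of all genes). Oas1a encodes an oligoadenylate synthetase, which makes the messenger that activates RNase L. It was at 2.40, 3.86, 1.44 and 2.32 CPM in control and at 0.411, 0.519, 0.173 and 1.28 CPM in 4A1 KO libraries, a 4.01-fold reduction without overlap (log2 fold change −2.0, SE 0.39, adjusted p = 0.00245). The size varied between pairs, at −2.68, −2.50 and −0.81 on the log2 scale, and the log2 fold change was −2.94 without replicate 4 and −1.51 without replicate 2. A stretch of 26.2% of its transcript is near-identical to Oas1g. Oas3, a larger synthetase, was at 1.55, 2.67, 1.59 and 1.63 CPM in control and at 0.791, 0.779, 0.395 and 1.12 CPM in 4A1 KO libraries (log2 fold change −1.37, SE 0.30, adjusted p = 0.00417), and the genotypes did not overlap here either. Eif2ak2 encodes PKR, the kinase that stops translation when it binds double-stranded RNA. It was at 20.5, 26.6, 21.6 and 28.6 CPM in control and at 12.6, 14.7, 13.1 and 17.2 CPM in 4A1 KO libraries and fell by 41.5% (log2 fold change −0.77, SE 0.08, adjusted p = 6.61e-05). The RNA helicase sensor MDA5, encoded by Ifih1, was not called at 3.94 ± 2.05 CPM in control and 4.87 ± 1.81 CPM in 4A1 KO libraries (log2 fold change 0.35, SE 0.14, adjusted p = 0.0612), nor was Zbp1, a sensor of Z-form nucleic acid (log2 fold change −0.21, SE 0.20).

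Oasl1, which belongs to the same family as Oas1a but has no synthetase activity, rose. It was at 5.85, 5.69, 2.55 and 2.69 CPM in control and at 10.8, 8.96, 6.83 and 4.86 CPM in 4A1 KO libraries. Within each batch both 4A1 KO libraries were above both controls, and the batch B 4A1 KO female, at 4.86 CPM, was below both batch A controls. The log2 fold change was 0.96 (SE 0.16, adjusted p = 0.00105), and without the pairing the adjusted p was 0.0733.

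The ubiquitin-like modifier ISG15 and the ligases and ADP-ribosyltransferases grouped with it had 8 tested members, of which 5 fell and none rose (13.7% and 11.6% of all genes). Isg15 was at 2.07, 3.27, 1.30 and 1.45 CPM in control and at 0.981, 1.06, 1.04 and 0.677 CPM in 4A1 KO libraries. The genotypes did not overlap, but the gap between the lowest control and the highest 4A1 KO library was small, and it was called (log2 fold change −1.04, SE 0.27, adjusted p = 0.00963). Without replicate 2 the log2 fold change was −0.70 and not called, whereas Isg15 was called in all 8 libraries (−1.04, adjusted p = 0.00361) and when control replicate 2 alone was left out of these (−0.79, adjusted p = 0.0112). Herc6, the main ligase that attaches ISG15 in mice, was at 7.97, 14.6, 10.0 and 11.5 CPM in control and at 4.34, 7.19, 5.72 and 7.08 CPM in 4A1 KO libraries (log2 fold change −0.85, SE 0.10, adjusted p = 0.000199), with 21.9% of its transcript near-identical to Gm45193. Parp14 and Parp9 are ADP-ribosyltransferase family members that act in STAT signalling. Parp14 fell from 47.0 ± 2.14 to 29.2 ± 3.11 CPM (log2 fold change −0.69, SE 0.07, adjusted p = 6.01e-05) and Parp9 from 40.8 ± 4.39 to 27.4 ± 1.51 CPM (−0.57, SE 0.08, adjusted p = 0.000284), both without overlap. Parp9 is transcribed from the opposite strand next to Dtx3l, its partner ubiquitin ligase, which was 39.7 ± 0.376 CPM in control and 34.0 ± 1.85 CPM in 4A1 KO libraries (log2 fold change −0.23, adjusted p = 0.0158) and so was below the size for a call. Trim30a, which restrains Toll-like receptor signalling, fell from 35.02 ± 4.26 to 22.9 ± 2.54 CPM (log2 fold change −0.61, SE 0.07, adjusted p = 0.000119). Usp18, the protease that removes ISG15, reached 0.668 CPM at most and was not called (log2 fold change −0.47, SE 0.54), and Trim25, the ligase that activates RIG-I, was at 72.0 ± 2.29 and 67.9 ± 5.56 CPM (log2 fold change −0.09, SE 0.06).

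Of the effectors outside these families, 3 of 11 tested members fell and 3 rose, against 13.7% and 11.6% of all genes. Ly6a, the surface protein Sca-1, was among the 3 members with the largest falls, level with Gbp7 and Oas1a within their errors. It was at 30.2, 33.8, 16.2 and 18.1 CPM in control and at 4.97, 5.87, 3.06 and 7.59 CPM in 4A1 KO libraries, so that the lowest control was above the highest 4A1 KO library. Ly6a was reduced by 75.6% (log2 fold change −2.04, SE 0.22, adjusted p = 9.38e-05). Its relative Ly6e, a surface protein that blocks viral entry, was the most abundant member at 812 ± 154 CPM in control and 600 ± 73.0 CPM in 4A1 KO libraries, and it passed the adjusted p without the size for a call (log2 fold change −0.42, SE 0.05, adjusted p = 0.00018). Isg20, an RNA exonuclease, fell from 6.01 ± 1.14 to 3.63 ± 0.713 CPM (log2 fold change −0.73, SE 0.12, adjusted p = 0.00109), but the batch A 4A1 KO male, at 5.57 CPM, lay above both batch B controls, at 5.37 and 5.33 CPM. Rtp4, a chaperone that brings receptors to the membrane, reached 1.31 CPM at most, with 20 to 53 reads in control and 7 to 17 reads in 4A1 KO libraries (log2 fold change −1.47, SE 0.31, adjusted p = 0.00388), and 26.6% of its exon bases are shared with Gm45338. DESeq2 did not call Rtp4 (adjusted p = 0.0619, shrunken log2 fold change −0.50). Bst2, the tether of budding virus, was at 32.01 ± 2.15 and 28.5 ± 0.466 CPM, and Ifi27 at 8.70 ± 1.84 and 8.32 ± 1.36 CPM, and neither was called. Ifi35, which binds the STAT interactor NMI, was at 42.1 ± 2.59 and 48.6 ± 2.70 CPM (log2 fold change 0.21, SE 0.06, adjusted p = 0.0137), below the size for a call.

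The 3 effectors that rose with Oasl1 were Samd9l, Xaf1 and Rsad2. Samd9l, an antiviral protein that can inhibit translation, was at 17.0, 22.5, 14.5 and 12.5 CPM in control and at 25.4, 37.7, 25.3 and 20.5 CPM in 4A1 KO libraries. Each 4A1 KO library was above the control of its own number, and the lowest 4A1 KO library was below the highest control. The rise was 1.69-fold (log2 fold change 0.76, SE 0.07, adjusted p = 6.05e-05, and 0.0628 without the pairing). Xaf1, which promotes apoptosis by binding XIAP, was at 3.797, 3.34, 2.31 and 2.11 CPM in control and at 5.60, 6.20, 3.90 and 2.48 CPM in 4A1 KO libraries (log2 fold change 0.64, SE 0.17, adjusted p = 0.0105). Xaf1 is the member nearest to Eif4a1, at 2.63 Mb on chromosome 11, and the part of that position was not tested. Rsad2 encodes viperin, an enzyme that makes a chain-terminating nucleotide, and it was close to the limit of detection, with 5, 13, 3 and 9 reads in control and 23, 28, 12 and 15 reads in 4A1 KO libraries (log2 fold change 1.19, SE 0.38, adjusted p = 0.0275). DESeq2 did not call Rsad2 (adjusted p = 0.215, shrunken log2 fold change 0.29). Cmpk2, its neighbour on chromosome 12, had control and 4A1 KO means of 0.792 ± 0.390 and 0.813 ± 0.257 CPM.

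Of the IFIT proteins, which bind viral RNA ends, Ifit2 fell from 4.65 ± 2.33 to 2.66 ± 0.486 CPM (log2 fold change −0.73, SE 0.20, adjusted p = 0.0125). Control replicate 2, at 7.23 CPM, was the highest Ifit2 library, and without replicate 2 the log2 fold change was −0.42. Ifit1 was at 1.62, 2.70, 0.746 and 0.781 CPM in control and at 1.01, 1.64, 0.740 and 0.958 CPM in 4A1 KO libraries, which overlapped (log2 fold change −0.22, SE 0.25, adjusted p = 0.497). Ifi203, a HIN-200 protein of the DNA-sensing cluster on chromosome 1, was at 32.4, 49.9, 27.1 and 29.8 CPM in control and at 17.9, 25.7, 14.5 and 16.1 CPM in 4A1 KO libraries and fell by 47.1% (log2 fold change −0.92, SE 0.07, adjusted p = 2.13e-05). The pairs differed little, from −0.96 to −0.89 on the log2 scale, but 43.9% of the Ifi203 transcript is near-identical to other genes of that cluster.

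None of the 4 tested transcription factors of the list was called, where 13.7% of all genes fell and 11.6% rose. Stat2, the partner of IRF9, was at 30.5, 26.1, 27.5 and 26.9 CPM in control and at 22.4, 20.9, 17.2 and 19.9 CPM in 4A1 KO libraries. These did not overlap, and the log2 fold change of −0.48 (SE 0.09, adjusted p = 0.00177) was just short of the size for a call. Irf1, which is induced by type II interferon, was at 54.5 ± 4.37 and 47.4 ± 3.10 CPM (log2 fold change −0.20, SE 0.08, adjusted p = 0.0571). Irf9 was at 21.3 ± 1.88 and 23.3 ± 2.49 CPM (log2 fold change 0.13, SE 0.07), and Irf7, which amplifies the type I response, reached 1.36 CPM at most (log2 fold change 0.30, SE 0.29).

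The 8 members that were not tested had few or no reads in the count table. Iigp1, a further immunity-related GTPase, and Ifit3b had no count in any library, which allows up to 0.0946 CPM in the smallest library for counting error alone. Ifi44 had 1 and 4 reads in a pair of control libraries and none elsewhere. Ifit3 had 0 to 10 reads, Ifi204 0 to 6, Ifi213 1 to 13, Oas2 0 to 23 and Oasl2 2 to 34 reads per library. The TPM of Ifi204 was 0.396 to 0.875 in control and 0.153 to 0.359 in 4A1 KO libraries. That of Rsad2, a tested member, was 0.0375 to 0.144 in control libraries, all below the control values of Ifi204. In 4A1 KO libraries Rsad2 was at 0.139 to 0.326 TPM, which overlaps both its own controls and the 4A1 KO values of Ifi204. Ifit3b had TPM of up to 0.0978, so the tables differ for these genes. For Ifi204, 36.1% of the transcript is near-identical to Ifi211, and how reads with several matches were counted is not known. For Oas2 and Oasl2 the highest library was control replicate 2. Oasl2 passed the filter when all 8 libraries were used and was not called (log2 fold change −0.84, adjusted p = 0.14).

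**Figure D3:**
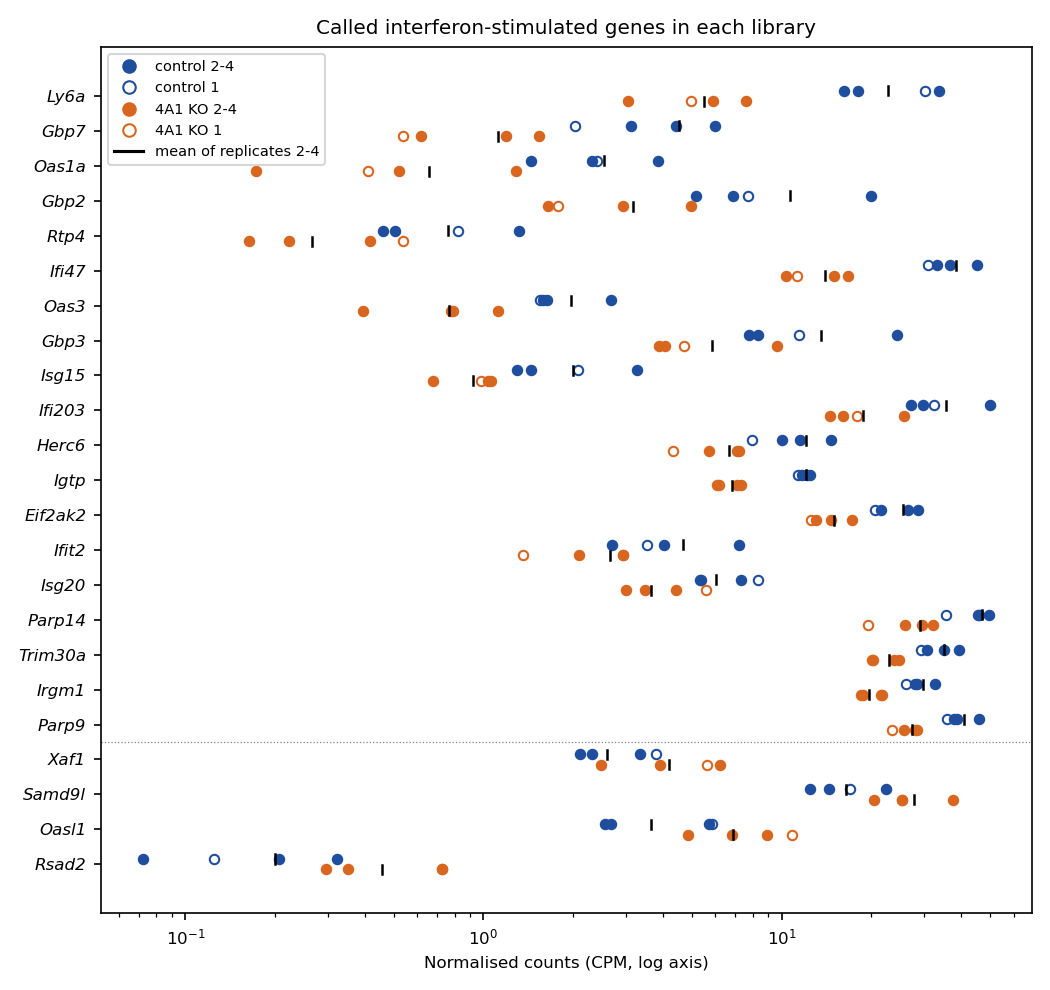
Normalised counts (CPM, log axis) of the 23 called interferon-stimulated genes in each library, with control libraries in blue, 4A1 KO libraries in orange, open circles for replicate 1 and black ticks for the mean of replicates 2 to 4; the dotted line separates the 19 genes that fell from the 4 that rose. Ly6a and Ifi47 are separated by wide gaps, whereas the 4 genes that rose overlap between genotypes.

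In all 8 libraries, 16 of 42 members were lower in every 4A1 KO library than in every control (19.6% of all genes were), and 1 was higher (17.2% of all genes). Of the 19 members that fell, 15 had no overlap, the exceptions being Ifit2, Isg20, Rtp4 and Gbp3. None of the 4 members that rose was free of overlap. With 4 libraries against 4, the smallest p of an exact two-sided permutation test is 0.0286, and with 3 against 3 it is 0.1. The edgeR test of all 8 libraries called the same 19 members lower and the same 4 higher, against 14.2% and 11.4% of all genes. On the TPM, which the authors derived with another counter, limma on log2(TPM + 1) tested 32 members, of which 17 were lower and 2 higher (11.8% and 8.42% of all genes), all of them among the 23 called on counts. Xaf1 was not called there (log2 fold change 0.22, adjusted p = 0.194), and Rsad2, Rtp4 and Oas3 were below the filter of a mean of 1 TPM.

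Per length of transcript, the members spanned a wide range. Ly6e was at 1338 ± 226 TPM in control and 991 ± 102 TPM in 4A1 KO libraries. Bst2 followed in control libraries at 77.0 ± 6.17 TPM, Ifi35 at 59.3 ± 1.98 TPM, Ly6a at 52.5 ± 21.7 TPM, Irf1 at 49.9 ± 5.17 TPM and Ifi47 at 42.3 ± 6.88 TPM, and from Ifi35 to Ifi47 neighbours in this order did not differ beyond their spread. In 4A1 KO libraries Ly6a was at 12.8 ± 5.28 TPM and Ifi47 at 16.5 ± 3.86 TPM, below Ifi35 at 69.0 ± 2.41 TPM, Bst2 at 67.7 ± 2.09 TPM and Irf1 at 43.3 ± 2.21 TPM. Some classical markers of an interferon response were low in control libraries, with Ifit1 at 1.01 ± 0.802 TPM, Mx1 at 0.427 ± 0.339 TPM and Rsad2 at 0.0927 ± 0.0533 TPM. Others were higher, with Isg15 at 5.36 ± 2.83 TPM, Oas1a at 3.30 ± 1.48 TPM and Ifit2 at 2.34 ± 1.12 TPM.

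The members also varied together between mice of the same genotype. Control replicate 2, a batch A female, was the highest control library for 27 of the 41 tested members (25.4% of all genes), and it was above the control mean for 37 of 41, with a median deviation of 0.44 on the log2 scale. 4A1 KO replicate 2, also a batch A female, was above the mean of its genotype for 39 of 41 members, with a median deviation of 0.18, and the highest 4A1 KO library for 16 of them (20.1% of all genes). The batch B males were low, with 6 of 41 members above the mean in control replicate 3 and 4 of 41 in 4A1 KO replicate 3. Over all tested genes the share above the mean lay between 49.3% and 52.1% in these and the other libraries. The summed fibroblast markers were highest in control replicate 2, at 52.0 CPM with Col1a1 at 27.4 CPM. The sum was lowest in 4A1 KO replicate 2, at 25.0 CPM, although Col1a1 there, at 8.85 CPM, was above all batch B libraries (5.25 to 7.59 CPM). These sums rest in part on Thy1, which ran the other way. Thy1 was at 4.67 CPM in 4A1 KO replicate 2 and at 12.1 to 31.3 CPM in batch B libraries. The part of the fibroblast markers in the level of the members was not tested. A fit of the 7 libraries other than control replicate 2, added after the data were seen, called 19 members lower and 4 higher (13.0% and 10.5% of all genes), with a median of −0.52. In it Irgm1 (log2 fold change −0.48) lost its call and Stat2 (−0.53) gained a call.

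**Figure D4:**
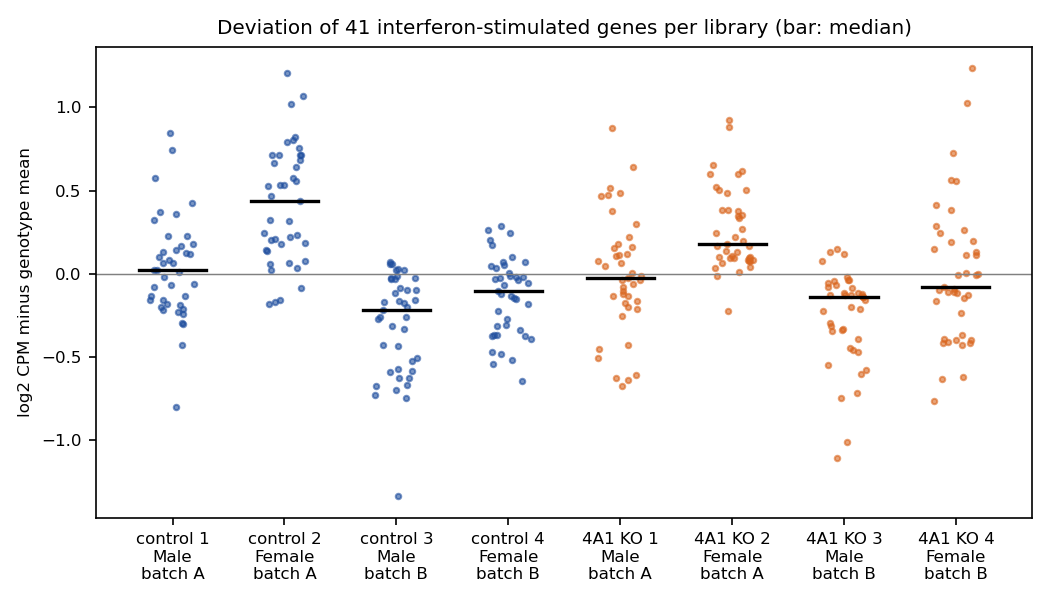
Log2 CPM of each of the 41 tested interferon-stimulated genes minus the mean of its genotype (vertical axis), in each of the 8 libraries, with sex and batch below and a black bar at the median. The 2 batch A females, control 2 and 4A1 KO 2, sit above 0 for 37 and 39 of the 41 genes, and the 2 batch B males sit mostly below 0.

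In a fit of all 8 libraries with batch, sex and genotype, 12 of 42 members were lower in batch B than in batch A (3.33% of all genes were lower) and none was higher (3.42% of all genes). They were Ifit1, Isg20, Mx2, Oasl1, Oasl2, Irf7, Rtp4, Ifih1, Gbp2, Gbp3, Xaf1 and Zbp1. Oasl1 differed by −0.93 on the log2 scale (SE 0.13, adjusted p = 0.00108), a difference between batches about as large as that between genotypes. The count was 9 of 41 in replicates 2 to 4 (1.98% of all genes were lower in that fit) and 6 of 42 without control replicate 2 (2.79% of all genes). Males were lower than females for 5 of 42 members (1.99% of all genes were lower), which were Ifit2, Ifih1, Gbp2, Gbp7 and Herc6, and none was higher (0.443% of all genes). Gbp7 was −1.10 on the log2 scale in males relative to females (SE 0.19, adjusted p = 0.0147) and Gbp2 was −1.03 (SE 0.19, adjusted p = 0.0174). No member was called by sex in replicates 2 to 4 or without control replicate 2, where few genes were called at all (0.113% and 0.438% of all genes lower in males). In these fits Gbp7 differed by −0.81 (adjusted p = 0.261) and −0.90 (adjusted p = 0.0659) and Herc6 by −0.25 and −0.41 on the log2 scale, with 13 of 41 and 11 of 42 members at an unadjusted p under 0.05. By edgeR, no member had an effect of genotype that differed between sexes or between batches (0.0% of all genes in either direction for sex, and 0.0% lower and 0.00704% higher for batch), with 2 and 3 of 42 members at an unadjusted p under 0.05.

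The rest of the interferon pathway was followed in 130 further genes. Of those that passed the filter on low counts, 22 fell (21.0%, against 13.7% of all genes) and 5 rose (4.76%, against 11.6%), and the median log2 fold change was −0.16, with 69 genes below 0 and 36 above. Tested against the fold change itself (glmTreat), the share that fell was 7.62%, near the 6.94% of all genes. None of the 10 interferon genes in the list had a read in the count table, and in the TPM table the highest values were 0.0884 for Ifnk, 0.0462 for Ifng and 0.0312 for Ifnb1, with the other genes at 0 throughout. Of the 6 receptor genes, none fell and 1 rose, against 13.7% and 11.6% of all genes. Ifnar1 and Ifnar2, the chains of the type I receptor, were at 35.8 ± 5.57 and 33.8 ± 1.28 CPM in control and at 33.1 ± 1.16 and 38.1 ± 1.30 CPM in 4A1 KO libraries (log2 fold change −0.10, adjusted p = 0.297, and 0.17, adjusted p = 0.0451). Ifngr1, the ligand-binding chain of the type II receptor, was at 30.3 ± 3.62 and 40.5 ± 2.81 CPM, higher in every 4A1 KO library and below the size for a call (log2 fold change 0.42, SE 0.07). Ifngr2 (0.21, adjusted p = 0.0216) and Il10rb, a chain shared by the type III receptor (0.05, adjusted p = 0.647), were also not called. The only receptor gene called was Ifnlr1, for type III interferon, which rose from 1.44 ± 0.624 to 5.34 ± 2.18 CPM (log2 fold change 1.89, SE 0.18, adjusted p = 4.9e-05). Control replicate 1, at 4.30 CPM, was above 4A1 KO replicate 4, at 3.34 CPM, and the log2 fold change of Ifnlr1 in all 8 libraries was 1.53.

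Of 15 tested genes of signal transduction 1 fell and none rose, against 13.7% and 11.6% of all genes. Socs1, the feedback inhibitor of JAK kinases, fell from 10.6 ± 4.18 to 6.63 ± 1.37 CPM (log2 fold change −0.63, SE 0.14, adjusted p = 0.00398). The pairs differed by −0.20, −0.82 and −0.79 on the log2 scale, and without the pairing Socs1 was not called (adjusted p = 0.12). Tyk2 was at 77.8 ± 11.9 and 59.8 ± 4.80 CPM, with a log2 fold change of −0.37 (SE 0.07) that was below the size for a call. Stat3 was higher in every 4A1 KO library (log2 fold change 0.35, SE 0.05), and Irf2 was lower in every 4A1 KO library (−0.44, SE 0.07). The kinases Jak1 and Jak2 had log2 fold changes of −0.10 and −0.25, and Irf3, Irf4, Irf5 and Irf8 lay between −0.15 and 0.15, none of them called. Of 17 nucleic acid sensors and adaptors 5 fell and none rose, against 13.7% and 11.6% of all genes. Sting1, the adaptor of cytosolic DNA sensing, had the largest fall, from 131 ± 1.95 to 72.6 ± 8.49 CPM (log2 fold change −0.86, SE 0.07, adjusted p = 3e-05), and Cgas, the enzyme upstream of it, was not called (log2 fold change 0.16, SE 0.15). The others that fell were Samhd1 (−0.57), Trex1 (−0.54), Ddx58 (−0.52), which encodes RIG-I, and Tlr7 (−0.50). The last 3 were at the edge of the threshold: none of them was called by DESeq2 with shrinkage (−0.50, −0.48 and −0.49), and Trex1 (−0.46) and Tlr7 (−0.49) were not called in all 8 libraries. Among 67 further interferon-stimulated genes tested, 16 fell and 4 rose (13.7% and 11.6% of all genes). Ifi27l2a (−1.53), Gbp5 (−1.31), Mndal (−1.10), Sp100 (−1.01) and Pml (−0.91) had the lowest log2 fold changes among the genes that averaged 1 CPM or more, and in each of these 5 the genotypes did not overlap. Phf11b (1.33) and Cxcl10 (0.84) were those that rose above that level.

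**Figure D5:**
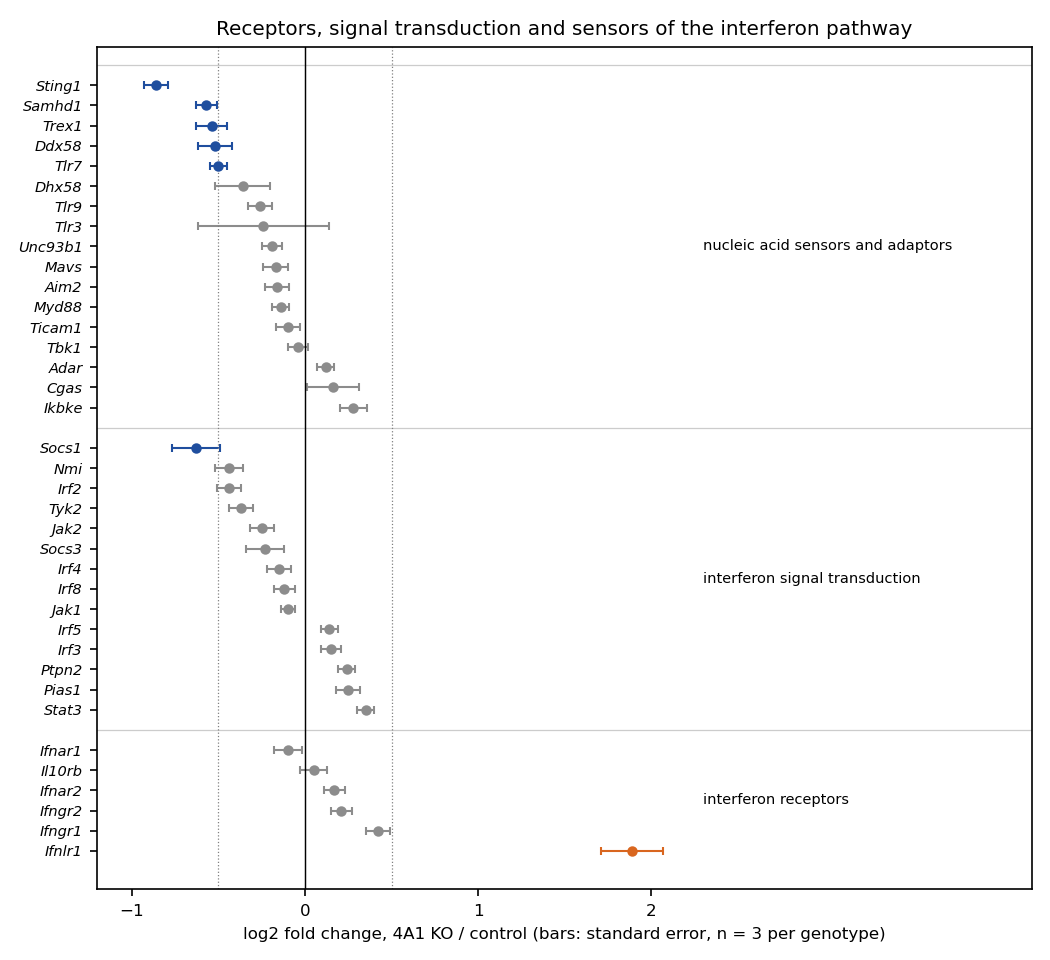
Log2 fold change (4A1 KO over control, horizontal axis) of tested receptors, signal transduction genes and nucleic acid sensors of the interferon pathway, with bars for the standard error (n = 3 libraries per genotype); blue points fell, orange points rose and grey points were not called. Ifnlr1 stands alone at 1.89, and Sting1 is the lowest point at −0.86.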

How the data were processed

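RNA-seq tables of 8 libraries were used, with genotype, sex, batch and replicate number from the labels. The authors trimmed the reads with Trim Galore 0.6.6, mapped them to GRCm39 with HISAT2 2.1.0 and deposited raw counts per gene from Seqmonk, without normalisation, and TPM from StringTie 2.1.1. How reads with several matches were counted is not given in the sources used here. Counts were filtered (filterByExpr), normalised (TMM) and fitted in R 4.3.3 with edgeR 4.0.16 quasi-likelihood tests on batch, sex and genotype. In replicates 2 to 4 this equals pairing libraries by number, a pairing that rests on the labels for sex and batch. After subtraction of genotype means, same-numbered libraries correlated across genes at 0.375 to 0.512. Adjusted p-values are Benjamini-Hochberg over all genes, and tests are two-sided. For TPM, limma 3.58.1 was run on log2(TPM + 1), for genes that averaged at least 1 TPM. Fold changes on that scale understate the change of low genes. CPM use TMM, means ± SD are over 3 libraries per genotype, and log2 differences of single pairs use CPM + 0.1. On simulated data with 200 of 14218 genes changed, edgeR recovered 187 with 3 false calls and limma 176 with 0. DESeq2 1.42.0, other scalings, filters, thresholds and left-out replicates were alternatives. Near-identical transcript stretches (at least 98% over 50 bases) were found with blastn 2.17.0. Promoters are from RefSeq (GRCm38.p6), and the windows were located in GRCm39 by exact match. The members, the pathway list and the tests were chosen with earlier results of these data known. All members may be named, with full values for called genes. Of the pathway list, receptors, kinases, STATs and IRFs are named, except 1 gene that is not reported here, and the 5 largest changes in each direction among called further genes that averaged at least 1 CPM. Socs1, Cgas and the 5 called sensors were named after their values were seen. Depth intervals cover counting error only.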

Additional observations from a re-analysis of the deposited data

Results flagged for a closer look

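In 84 groups of 4 libraries (42 members in 2 genotypes), 3 held a library far from the others by Dixon's test, where chance alone gives about 1 in 20 groups, or 4.2. Oas3 was at 2.67 CPM in control replicate 2, with the next control at 1.63 CPM, so that the gap took a share of 0.928 of the range of the controls. Gbp3 was at 9.63 CPM in 4A1 KO replicate 2, with the next 4A1 KO library at 4.72 CPM, a share of 0.854. Dtx3l was at 33.5 CPM in control replicate 1, below the next control at 39.4 CPM, a share of 0.888. Control replicate 2 and 4A1 KO replicate 2 are the batch A females, and control replicate 1 is a library that the study removed for reduced viability.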

How the results depend on the processing

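The number of members that fell, 19, stayed within 1.5 times under every alternative run, from 13 with a test against a fold change (glmTreat) to 22 at an adjusted p alone, and was 18 to 21 when a replicate was left out. The median of −0.47 ranged from −0.58 to −0.38. The 4 members that rose were less stable: 0 without the replicate block, 2 with glmTreat and 2 to 4 when a replicate was left out, and on TPM the 2 that rose became 1 without the filter and 0 without the replicate block. Members that differed by sex went from 5 to 0 in replicates 2 to 4 and to 0 without control replicate 2, and those that differed by batch from 12 to 6 without control replicate 2. Of the other interferon genes, 8 fell with glmTreat and 44 at an adjusted p alone, and 2 rose with DESeq2 (with or without shrinkage), 3 with a mean of at least 1 CPM, without the replicate block or with glmTreat, and 21 at an adjusted p alone. Of all genes, 987 fell with glmTreat and 3801 at an adjusted p alone, while 1094 rose with DESeq2 shrinkage, 640 with glmTreat and 3737 at an adjusted p alone. Of 608 recomputed fold changes of single members, 568 kept their direction and side of the threshold, 26 lost a call, 8 gained a call and 6 changed sign. Of the 23 called members, 14 were called under every alternative other than glmTreat. The sign changes were all in members not called: with a replicate or control replicate 2 left out, Ifit1 ranged from −0.44 to 0.15, Mx1 from −0.94 to 0.14, Ifi27 from −0.17 to 0.05 and Zbp1 from −0.34 to 0.03 (each highest without replicate 2), and Usp18 from −1.39 to 0.01 and Cmpk2 from −0.27 to 0.39 (0.01 and −0.27 without replicate 3). The cause of these changes was not tested. Members under about 1 CPM, such as Rsad2, Rtp4 and Usp18, rest on few reads.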
